A study of Homo sapiens with 4 samples.

Results

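Interferons are secreted proteins that warn cells of viral infection, and interferon-stimulated genes are the genes they switch on. The 49 genes described here are 45 such genes and regulators plus the 4 genes of the type I and type II interferon receptor chains. They were chosen by symbol, and all 49 symbols matched 1 row each of the 58825 genes in the deposited table. RNA was measured in 4 libraries of ARP1, an established human cell line of multiple myeloma, a cancer of antibody-secreting plasma cells. In 2 libraries the genotype is RFWD2 overexpression, and the other 2 are wild type cells of the same line. RFWD2 is the older symbol of COP1, an E3 ubiquitin ligase that tags proteins for destruction. No interferon or other agent is named for any library, nor are the vector, the clone or the culture behind each repeat, so p-values measure only a spread between libraries that may be technical.

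Type I interferons bind the receptor chains IFNAR1 and IFNAR2, and interferon gamma binds IFNGR1 and IFNGR2. The kinases JAK1, TYK2 and JAK2 on these chains then phosphorylate STAT proteins. STAT2 and IRF9 are subunits of ISGF3, which binds the interferon-stimulated response element (ISRE), while the gamma-activated sequence (GAS) is the site of paired STAT proteins. Many of the proteins made in turn block virus entry, cut or sense viral RNA, or mark other proteins with ISG15, and several of them, STAT2 and IRF9 included, strengthen the pathway itself.

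Libraries held between 62143098 and 70713792 estimated counts. COP1, not called by edgeR, was listed at 13.5 and 13.9 FPKM in the overexpressing cells, against 5.99 and 8.93 FPKM in wild type, each pair in the order of replicate numbers 1 and 2 as throughout. FPKM scales fragments to transcript length and library size. Libraries of the same number were more alike than libraries of the same genotype, with correlations (Pearson's r) in log2 CPM, which scales counts to the library total, of 0.971 and 0.973 within numbers, against 0.908 and 0.943 within genotypes, over 11229 genes that are not independent replicates. Mitochondrially encoded genes took 7.46% and 4.96% of counts with overexpression, against 7.68% and 4.27% in wild type. Of 11 plasma cell markers, 10 averaged at least 1 FPKM, and no marker of B, T and NK, myeloid, plasmacytoid dendritic or stromal cells did. In such bulk RNA, fewer cells of a kind and less RNA per cell cannot be told apart.

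RNA of the receiving end of the pathway was present, while the interferon genes were at or near 0. All 6 receptor chain genes (the 4 members with IFNLR1 and IL10RB), JAK1, TYK2, STAT2 and STAT3 averaged at least 1 FPKM. Of 21 interferon genes, 15 had a count of 0 in all 4 libraries, and the highest value of any was 0.226 FPKM, for IFNL1 in wild type library 1. JAK2, which serves the gamma receptor, was listed at 0.271 and 1.13 FPKM in overexpressing cells against 0.421 and 0.857 FPKM in wild type. Further down, 14 of the 37 members that are neither receptors, transcription factors nor RNA sensors averaged at least 1 FPKM.

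**Figure D1:**
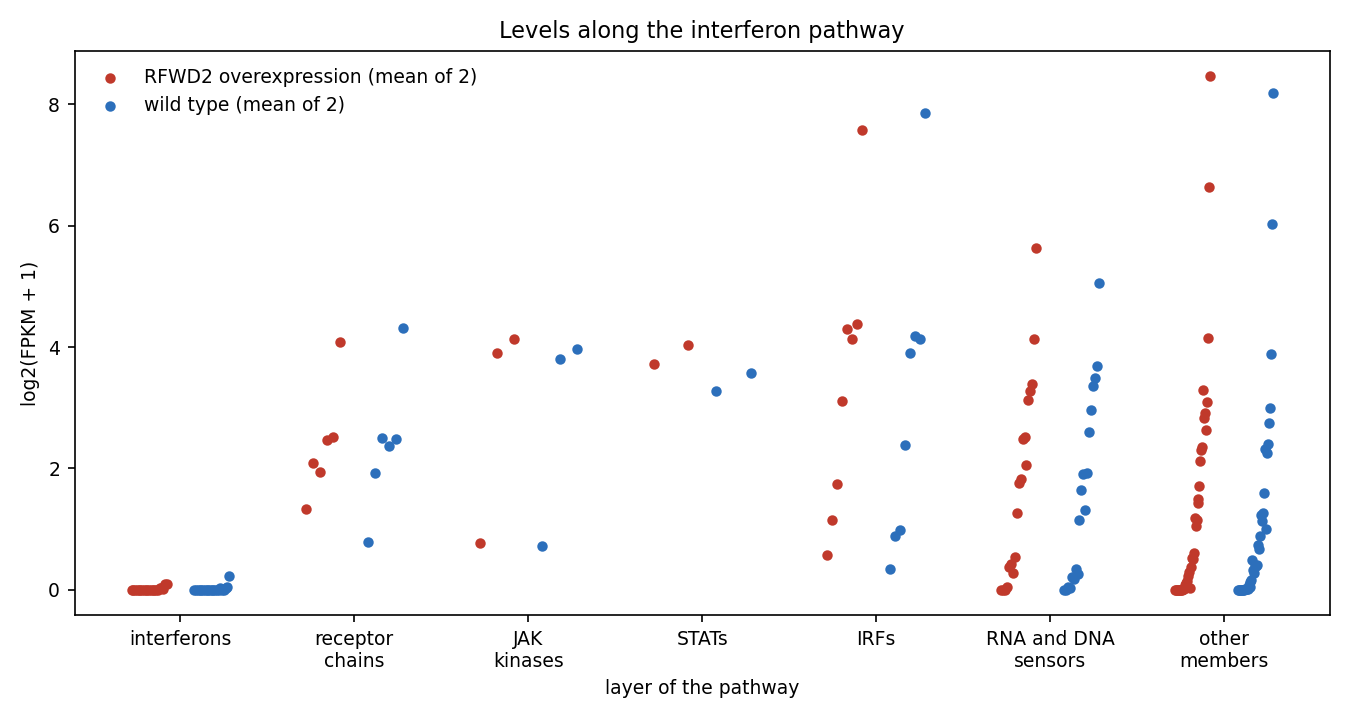
Mean log2(FPKM + 1) of each gene (points, y axis) by layer of the interferon pathway (x axis), with RFWD2 overexpression on the left and wild type on the right of each layer, as means of 2 libraries. The 21 interferon genes lie at or near 0, all 6 receptor chains are above 0, and the other members spread from 0 to the highest values shown, with BST2 at the top.

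Of the 49 members, 23 averaged at least 1 FPKM and are called expressed here, 12 were under 0.1 FPKM in every library and are called silent, and 14 lay between. The low ones were DDX58, IFIH1, OAS3, OASL, IFIT2, IFIT3, IFITM2, IFITM3, MX2, IFI27, EPSTI1, HERC5, PARP9 and PARP12. Of all genes in the table, 63.3% were silent by this measure. A group of 8 antiviral genes had a count of 0 in all 4 libraries. They were DDX60, an RNA sensor cofactor, IFIT5, an RNA-binding protein, MX1, a dynamin-like GTPase, RSAD2 (viperin), which makes a chain-terminating nucleotide, USP18, which removes ISG15 and restrains the receptor, the ubiquitin ligase TRIM22, the apoptosis-linked XAF1, and IFI44. A count of 0 allows up to 3 counts, or 0.0424 to 0.0483 CPM depending on the library, a limit that covers counting error only. The other 4 silent members were IFIT1, GBP1, IFI44L and HERC6, of which HERC6 reached the highest value, 0.0711 FPKM in overexpression library 2.

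A pair of members made up most of the signal. BST2 (tetherin), which holds budding viruses at the cell surface, and IFITM1, which blocks virus entry at membranes, together took 80.5% and 70.1% of the members' summed FPKM in overexpressing cells, against 81.0% and 69.7% in wild type. BST2 (minus strand of chromosome 19, 17402939 to 17405630 in the table) had 392.4 and 310.4 FPKM in overexpressing cells against 340.3 and 239.8 FPKM in wild type. The groups overlapped, and in each the library numbered 1 was the higher one. IFITM1 (plus strand of chromosome 11, 313506 to 315272) had 132 and 64.1 FPKM in overexpressing cells against 88.0 and 41.0 FPKM in wild type, with the same overlap and the same order of numbers. Its neighbours IFITM2 and IFITM3, close relatives in the same gene cluster, stayed under 1 FPKM in every library.

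**Figure D2:**
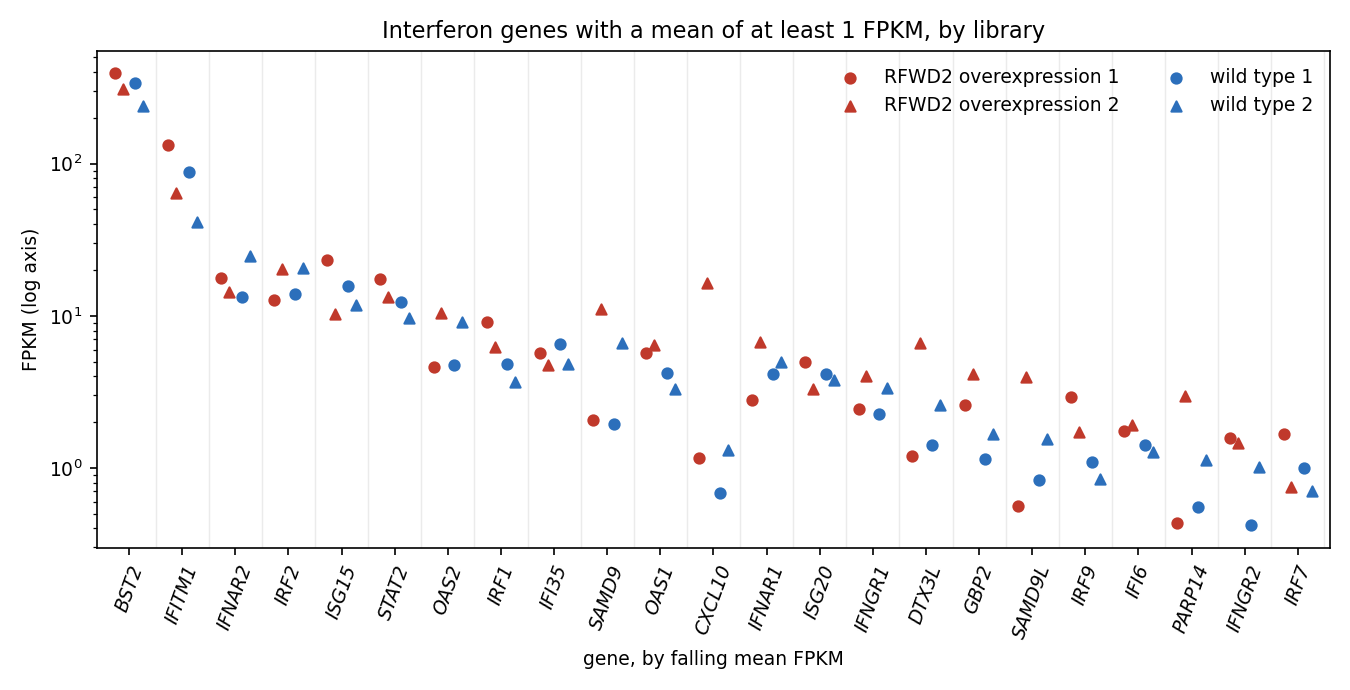
FPKM (y axis, log scale) of the 23 expressed members, ordered by falling mean (x axis), with 1 point per library, RFWD2 overexpression left of wild type. BST2 and IFITM1 stand above all others, and CXCL10 has 1 point, overexpression library 2 at 16.5 FPKM, far above its other 3.

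Letters matching the core of the element that ISGF3 and interferon regulatory factors read were found at the starts of both silent and expressed members, though in a smaller share of the expressed ones. RefSeq promoter windows (GRCh38.p14, 250 bases before to 50 after a start) were found for 38 of the 49 members. The ISRE core (GAAA, any 2 bases, GAAA), searched on both strands, occurred in 26 of them (68.4%), against 4.38% of all 27305 genes with a window. It was in 9 of 18 expressed members, 9 of 10 low ones and 8 of 10 silent ones. The expressed members without it include the receptor genes IFNAR1, IFNGR1 and IFNGR2, so the kinds of genes differ between these groups. The GAS core TTCNNNGAA, which reads the same on both strands, occurred in 11 of the 38 (28.9%), against 9.38% of genes. A match is a run of letters and not a shown binding site. Among expressed members highest in overexpression library 2, CXCL10, DTX3L, PARP14, SAMD9 and IFI6 hold the ISRE core. SAMD9L, IFNAR1, IFNGR1 and OAS1 do not, and OAS2 and GBP2 had no window. The following 80-base stretches are written 5′ to 3′ along each gene with the matches in capitals. They come from the 3 most abundant members that hold the ISRE core and from 3 of the named holders led by overexpression library 2.
BST2: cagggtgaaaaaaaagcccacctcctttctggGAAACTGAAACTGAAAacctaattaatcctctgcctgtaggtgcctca
IFITM1: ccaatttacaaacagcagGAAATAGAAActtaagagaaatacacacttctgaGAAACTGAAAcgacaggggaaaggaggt
ISG15: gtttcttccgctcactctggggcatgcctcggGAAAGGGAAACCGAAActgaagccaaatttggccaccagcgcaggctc
CXCL10: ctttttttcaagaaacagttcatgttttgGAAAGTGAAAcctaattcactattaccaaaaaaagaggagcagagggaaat
DTX3L: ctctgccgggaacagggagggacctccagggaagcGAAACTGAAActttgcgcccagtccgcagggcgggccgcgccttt
PARP14: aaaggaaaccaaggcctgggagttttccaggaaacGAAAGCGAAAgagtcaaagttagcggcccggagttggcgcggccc

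They lie at chr19:17405713-17405792 (minus strand), chr11:313982-314061 (plus), chr1:1013352-1013431 (plus), chr4:76023668-76023747 (minus), chr3:122564297-122564376 (plus) and chr3:122680775-122680854 (plus), in the order printed. BST2 and ISG15 each hold a pair of overlapping matches and IFITM1 a pair of separate ones. The DTX3L match is also the match in the window of PARP9, which starts on the opposite strand nearby. Silent members hold the same core, as the following 4 stretches show, where capitals of the form TTTC, any 2 bases, TTTC are the core read from the other strand.
MX1: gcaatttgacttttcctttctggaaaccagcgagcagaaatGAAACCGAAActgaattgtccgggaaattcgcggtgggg
IFI44L: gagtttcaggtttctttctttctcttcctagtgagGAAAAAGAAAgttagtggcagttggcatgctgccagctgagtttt
RSAD2: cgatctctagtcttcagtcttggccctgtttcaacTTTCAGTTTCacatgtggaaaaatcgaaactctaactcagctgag
IFIT1: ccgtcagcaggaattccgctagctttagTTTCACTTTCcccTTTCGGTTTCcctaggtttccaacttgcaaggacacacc

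These lie on the plus strand at chr21:41420528-41420607, chr1:78620340-78620419, chr2:6877597-6877676 and chr10:89392479-89392558. MX1 and RSAD2 had a count of 0 in every library and hold the core in these windows. The pathway's own factors IRF1 and IRF9 hold a GAS core and no ISRE core in their windows.
IRF1: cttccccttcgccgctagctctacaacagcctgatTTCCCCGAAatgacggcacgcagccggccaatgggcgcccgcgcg
IRF9: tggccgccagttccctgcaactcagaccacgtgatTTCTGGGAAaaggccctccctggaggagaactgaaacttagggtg

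The IRF1 stretch is chr5:132490853-132490932 (minus strand) and the IRF9 stretch chr14:24161167-24161246 (plus strand).

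**Figure D3:**
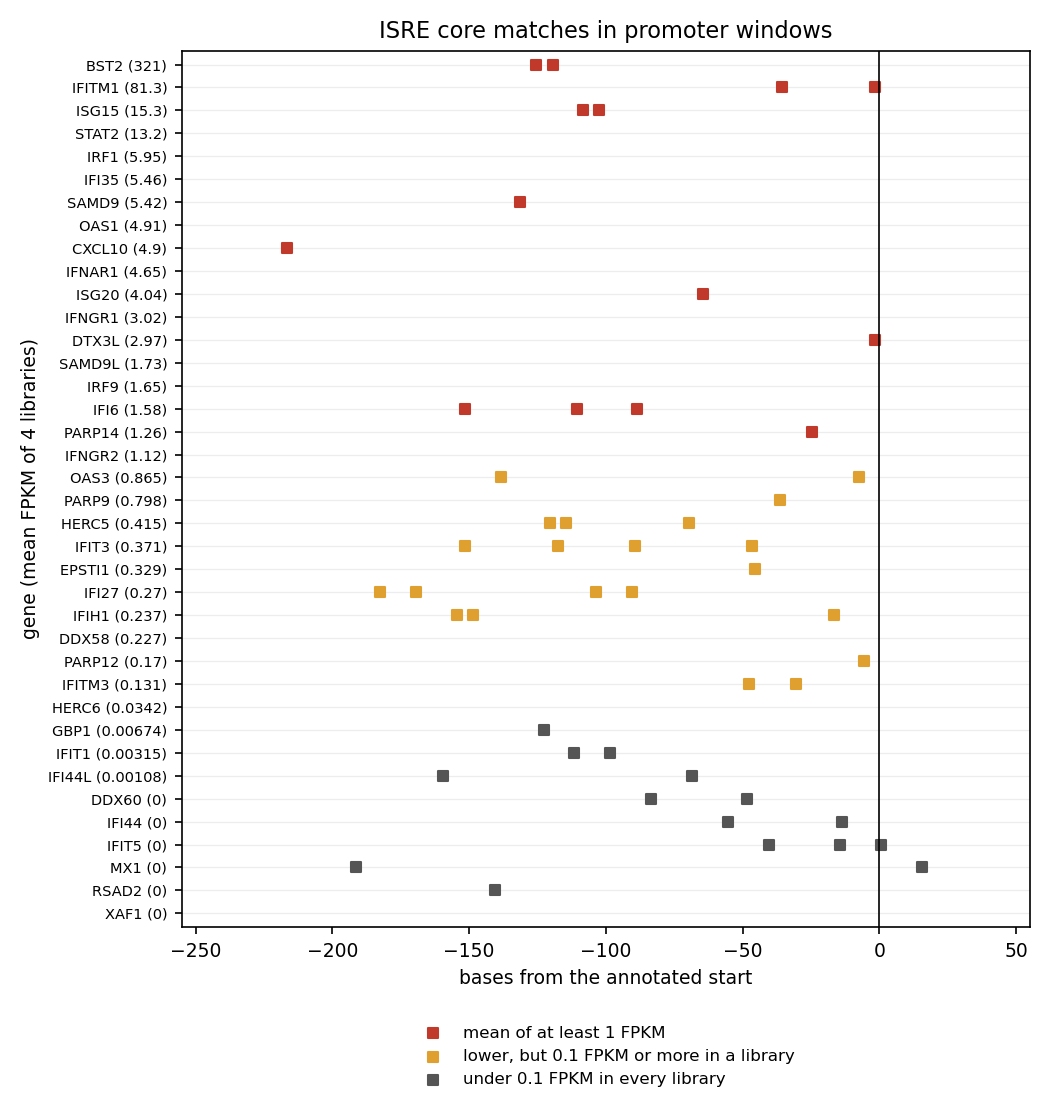
Positions of ISRE core matches on either strand (squares) in the RefSeq promoter windows of 38 members (y axis, by falling mean FPKM), in bases from the annotated start (x axis), coloured by level. Matches occur in 9 of 18 expressed, 9 of 10 low and 8 of 10 silent members.

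With RFWD2 overexpression, none of the 38 members that could be tested was called by edgeR's quasi-likelihood test at a Benjamini-Hochberg adjusted p under 0.05 over 18873 genes, of which 0% were called. Every adjusted p of a member was 1.0, and the other 11 members had counts too low to be tested. At an unadjusted p under 0.05, GBP2 and CXCL10 were higher with edgeR, against 1.25% of all genes tested, and IFITM2 was lower, against 0.583%. DESeq2 also called 0 members, where 0.263% of all genes with an adjusted p were called. Fold changes below are edgeR's log2 values, overexpression over wild type, with their standard errors.

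Most estimates nevertheless lay above 0. The log2 fold change was positive in 33 of the 38 members tested, against 51.6% of all genes tested, and its median was 0.64, against 0.01. The members are not independent replicates, and the count holds for all 4 libraries together. The sign of most of the 38, DTX3L, PARP14 and SAMD9 among them, turned when 1 library was left out, as given below. Among the 23 expressed members the median was 0.48, against -0.01 for all genes of that level. In 7 of the 23 (30.4%) both overexpression libraries lay above both wild type libraries, against 9.55% of the 11229 genes of that level, and in 0 both lay below, against 6.44%. The 7 were IFNGR2, STAT2, IRF9, IRF1, OAS1, GBP2 and IFI6. In CPM with TMM scaling 7 were above and 0 below, against 6.91% and 9.70% of genes, but 6 were shared: STAT2 overlapped on that scale and CXCL10 did not. Only members without overlap can have a difference between group means larger than the gap between libraries in each group. All 7 listed for FPKM had it on the log2(FPKM + 1) scale, which is not separate support.

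Of the receptors, IFNGR2, the signalling chain of the gamma receptor, was at 1.58 and 1.45 FPKM in overexpressing cells against 0.420 and 1.02 FPKM in wild type. Its groups did not overlap, and wild type library 1 was the low one (log2 fold change 1.08 ± 0.56, SE). IFNGR1, the ligand-binding chain, had 2.45 and 4.04 FPKM in overexpressing cells against 2.26 and 3.34 FPKM in wild type, which overlap. The type I receptor chains overlapped too. IFNAR1 was at 2.79 and 6.70 FPKM in overexpressing cells against 4.15 and 4.98 FPKM in wild type (-0.05 ± 0.44, SE). IFNAR2 was at 17.6 and 14.3 FPKM in overexpressing cells against 13.3 and 24.5 FPKM in wild type (-0.23 ± 0.41, SE), and its order between genotypes differed between the numbers. An overlapping model on its strand, AP000295, shares 41.2% of the 50-base runs of IFNAR2 transcripts, and the sum of both, formed after seeing the data like the other sums of models, was 22.5 and 16.8 FPKM in overexpressing cells against 16.6 and 25.8 FPKM in wild type. IFNAR2, IFNAR1 and IFNGR2 are neighbours on chromosome 21.

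Of the transcription factors, STAT2, the ISGF3 subunit that carries its activation domain, was at 17.5 and 13.4 FPKM in overexpressing cells against 12.3 and 9.65 FPKM in wild type. IRF1, a factor of its own that gamma interferon induces through a GAS, was at 9.10 and 6.19 FPKM in overexpressing cells against 4.83 and 3.68 FPKM in wild type. In both genes the overexpression libraries were the higher pair in FPKM and library 1 exceeded library 2 in each genotype (log2 fold changes 0.46 ± 0.42 and 0.82 ± 0.46, SE). In CPM with TMM scaling STAT2 had 145 and 87.3 in overexpressing cells against 101 and 67.0 in wild type, which overlap. IRF9, the DNA-binding subunit of ISGF3, was at 2.93 and 1.73 FPKM in overexpressing cells against 1.09 and 0.846 FPKM in wild type (1.23 ± 0.56, SE). The model AL136295 overlaps IRF9 on its strand and shares 43.2% of its 50-base runs, and the sum of both stood at 7.74 and 7.15 FPKM in overexpressing cells against 7.15 and 5.87 FPKM in wild type. Over the summed locus the mean difference in log2 CPM was 0.08, against 1.40 and 0.92 for IRF9 alone within numbers 1 and 2. How reads were split between these models was not given.

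The other factors did not separate the genotypes. IRF2, which competes with IRF1 for the same sites, was at 12.6 and 20.4 FPKM in overexpressing cells against 13.8 and 20.6 FPKM in wild type. IRF7, the amplifier of interferon alpha genes, was at 1.67 and 0.746 FPKM in overexpressing cells against 1.001 and 0.705 FPKM in wild type. For IRF2 the libraries numbered 2 were the high ones, and for IRF7 overexpression library 1 was highest. The cytosolic sensors of viral RNA were low, with DDX58 (RIG-I) and IFIH1 (MDA5) at no more than 0.540 FPKM in any library and DDX60 at 0.

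The OAS enzymes make the short adenylate chains that activate the RNA-cutting enzyme RNase L, and OAS1 and OAS2 were expressed. OAS1 was at 5.72 and 6.43 FPKM in overexpressing cells against 4.21 and 3.29 FPKM in wild type, with no overlap (0.63 ± 0.41, SE). OAS2 was at 4.62 and 10.5 FPKM in overexpressing cells against 4.74 and 9.11 FPKM in wild type. Here the libraries numbered 2 were the high ones, and the genotypes overlapped (0.05 ± 0.46, SE). OAS3 and the catalytically inactive OASL averaged under 1 FPKM, and both were higher in both overexpression libraries than in either wild type library.

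GBP2, a guanylate-binding GTPase that gamma interferon induces strongly in many cells, was at 2.60 and 4.13 FPKM in overexpressing cells against 1.14 and 1.67 FPKM in wild type. Its difference in log2 CPM was 1.19 within number 1 and 1.21 within number 2, and its log2 fold change was 1.20 ± 0.41 (SE). Leaving out each library in turn kept it between 1.03 and 1.36. Of its 50-base runs, 9.15% also occur in GBP7, which was listed at 0 in all libraries. Related GTPases were lower, with GBP1 silent, MX1 at 0 and MX2, a restriction factor of retroviruses, at no more than 0.115 FPKM.

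IFI6, a mitochondrial and endoplasmic reticulum protein that opposes apoptosis, was the last of the 7 without overlap, at 1.74 and 1.91 FPKM in overexpressing cells against 1.41 and 1.27 FPKM in wild type (0.40 ± 0.54, SE). IFI35, a partner of NMI, had a small negative estimate, at 5.71 and 4.76 FPKM in overexpressing cells against 6.55 and 4.84 FPKM in wild type (-0.16 ± 0.47, SE). ISG20, an exonuclease of single-stranded RNA, was at 4.94 and 3.28 FPKM in overexpressing cells against 4.15 and 3.81 FPKM in wild type (0.04 ± 0.46, SE). In IFI35 and ISG20 the genotypes overlapped.

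ISG15, the ubiquitin-like protein attached to other proteins in the response, was at 23.2 and 10.3 FPKM in overexpressing cells against 15.8 and 11.8 FPKM in wild type (0.29 ± 0.61, SE). Overexpression library 1 was the highest and overexpression library 2 the lowest, so the genotypes overlapped fully. The log2 CPM difference was 0.56 within number 1 and -0.28 within number 2. Its ligase HERC5 did not exceed 0.748 FPKM, nor did HERC6, and its protease USP18 was at 0. UBE2L6, its conjugating enzyme, was at 30.6 and 28.1 FPKM in overexpressing cells against 29.6 and 18.1 FPKM in wild type. BST2 and IFITM1 had log2 fold changes of 0.24 ± 0.42 and 0.58 ± 0.64 (SE). IFITM2, with 0 and 0.0318 FPKM in overexpressing cells against 0.609 and 0.185 FPKM in wild type, was lower in both overexpression libraries, but its model in the table spans IFITM1 on the same strand and 21.6% of its 50-base runs occur in IFITM1, so its reads could be assigned either way. The sum of IFITM1 and IFITM2 was 132 and 64.1 FPKM in overexpressing cells against 88.6 and 41.2 FPKM in wild type.

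A second set of members was highest in overexpression library 2. In several of the expressed ones, SAMD9 most of all, wild type library 2 was also above the libraries numbered 1. CXCL10, a chemokine that draws activated T cells, was at 1.16 and 16.5 FPKM in overexpressing cells against 0.686 and 1.31 FPKM in wild type. Overexpression library 2 lay 2.92 above the next library in log2(FPKM + 1), and overexpression library 1 lay within the wild type range. In CPM with TMM scaling that library was above both wild type ones by a little, with 1.84 and 20.4 in overexpressing cells against 1.09 and 1.74 in wild type. The log2 fold change was 2.97 ± 1.11 (SE) with all libraries, 0.38 without overexpression library 2 and 3.84 without overexpression library 1, where edgeR called it (adjusted p = 3.5e-06). In that fit 0.709% of all genes were called, and the lone overexpression library is assumed to vary like the wild type ones. Without overexpression library 2, where 0.92% of all genes were called, IFITM2 was the 1 member called, and without wild type library 1 or 2 no member was, against 0.359% and 0.412% of genes.

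DTX3L, a ubiquitin ligase, and PARP9, an ADP-ribosyltransferase, form a complex and have adjoining starts on chromosome 3, with the next family member, PARP14, nearby. DTX3L was at 1.20 and 6.66 FPKM in overexpressing cells against 1.42 and 2.59 FPKM in wild type. PARP14 was at 0.432 and 2.95 FPKM in overexpressing cells against 0.551 and 1.12 FPKM in wild type. PARP9, singled out after its values were seen since its mean was under 1 FPKM, was at 0.270 and 2.26 FPKM in overexpressing cells against 0.235 and 0.428 FPKM in wild type. In all 3 genes overexpression library 2 was highest, wild type library 2 next, and the libraries numbered 1 were low. PARP9 and DTX3L models overlap on opposite strands and the use of strand in counting was not given, so reads of the overlap cannot be told apart. The same limit holds for all 22 members that overlap a model on the opposite strand. IFNGR2, IRF1, OAS1, IFI6, CXCL10 and ISG15 are among these.

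SAMD9 and SAMD9L, neighbouring genes on chromosome 7 whose proteins restrain growth and poxviruses, were likewise highest in overexpression library 2 and next in wild type library 2. SAMD9 was at 2.05 and 11.1 FPKM in overexpressing cells against 1.94 and 6.61 FPKM in wild type. SAMD9L was at 0.561 and 3.97 FPKM in overexpressing cells against 0.838 and 1.54 FPKM in wild type. In SAMD9 both libraries numbered 2 were high, while in SAMD9L overexpression library 2 stood out more.

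**Figure D4:**
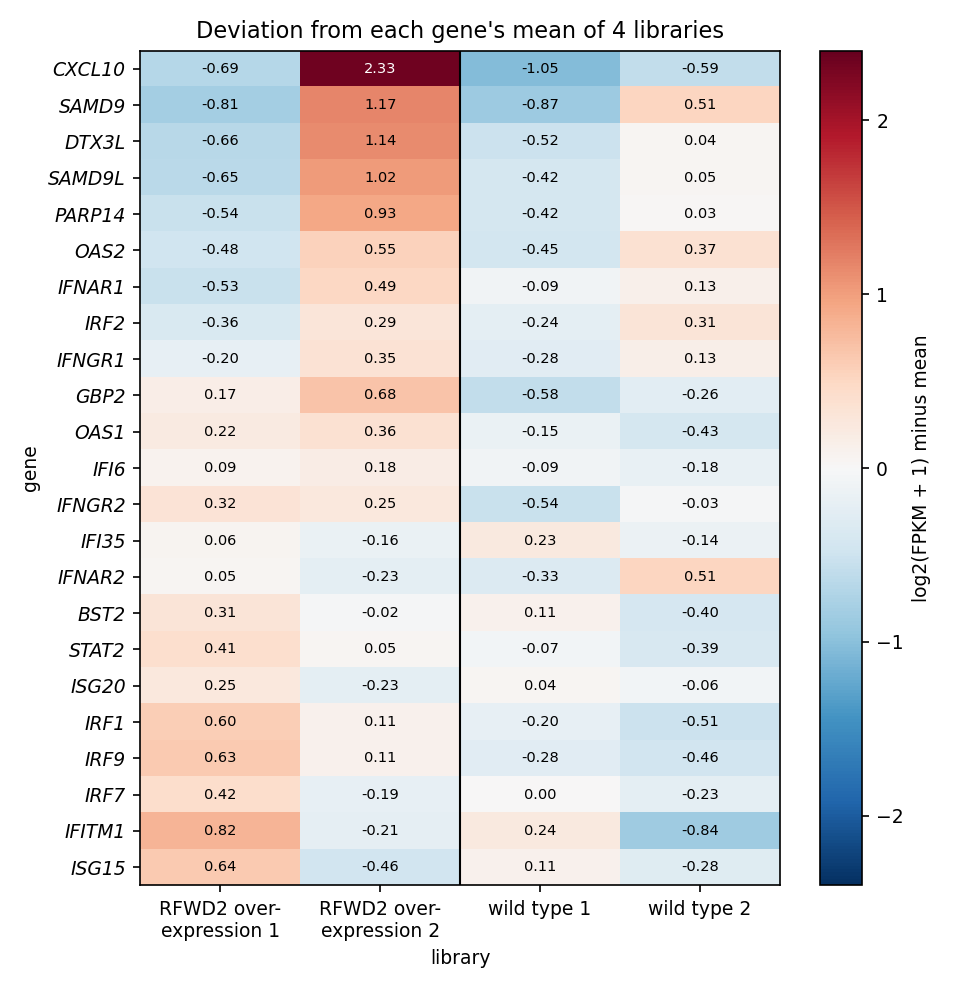
Deviation of each library from the gene's mean over 4 libraries in log2(FPKM + 1) (colour and printed value) for the 23 expressed members (rows, ordered by overexpression library 2 minus 1), with RFWD2 overexpression in the left columns and wild type on the right. CXCL10 (2.33), SAMD9 (1.17), DTX3L (1.14) and SAMD9L (1.02) are highest in overexpression library 2.

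The sign of these fold changes turned without that library. With all libraries they were 0.84 ± 0.74 for DTX3L, 0.88 ± 0.82 for PARP14, 1.78 ± 0.89 for PARP9, 0.52 ± 0.81 for SAMD9 and 0.79 ± 0.82 for SAMD9L (SE). Without overexpression library 2 all 5 were negative, at -0.58, -0.79, -0.13, -0.87 and -0.93 in that order. SAMD9 was also negative without wild type library 1 (-0.050). Without overexpression library 1, PARP9 was called as well (2.57, edgeR adjusted p = 0.0119). By the measure used here a library stands apart when it lies at least 1 from the nearest other in log2(FPKM + 1) and the other 3 span less than that gap. Of the 23 expressed members this held for CXCL10 and DTX3L, both through overexpression library 2, which stands apart upwards in 0.321% of all genes of that level, and a library of any kind does in 2.07%.

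Highest values were shared out between the overexpression libraries. Of the 23 expressed members, 9 were highest in overexpression library 1, 11 in overexpression library 2, 1 in wild type library 1 and 2 in wild type library 2. Over all genes of that level the shares were 27.4%, 36.7%, 11.1% and 24.8%. Of the 14 low members, overexpression library 2 was highest for 9, overexpression library 1 for 4 and wild type library 1 for 1. Their own highest values ran from 0.115 to 2.26 FPKM. Of the 14, OAS3, OASL, MX2 and EPSTI1 lay higher in both overexpression libraries than in either wild type library, IFITM2 lower. Over all genes averaging 0.1 FPKM or more, expressed ones included, 12.2% lay higher in this way and 7.69% lower. MX2 and IFIT2 fall under that limit, and no share was taken for low genes alone. Myeloid markers summed to 1.21 and 1.28 FPKM in overexpressing cells against 0.463 and 0.125 FPKM in wild type, nearly all of it CSF1R, with 5 of the 7 at 0 in every library, LYZ and S100A8 among them. Stromal markers summed to 1.07 and 0.515 FPKM in overexpressing cells against 0.354 and 0.133 FPKM in wild type, with 4 of the 6 at 0, COL1A2 and DCN among them. Neither list's part in the members' values was tested.

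Set side by side within each replicate number, the expressed members were higher with overexpression in both numbers in 12 cases, against 24% of genes of that level. They were lower in both in 2, IRF2 and IFI35, against 29.8%, and had opposite signs in 9. The median difference in log2 CPM was 0.31 within number 1 and 0.42 within number 2, where all genes of that level had -0.01 and -0.04. IFNGR2 differed mostly within number 1 (1.87, against 0.42 within number 2) and CXCL10 within number 2 (3.53, against 0.74 within number 1). DTX3L, PARP14 and SAMD9L were negative within number 1 (-0.24, -0.35 and -0.57) and positive within number 2 (1.27, 1.298 and 1.27).

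**Figure D5:**
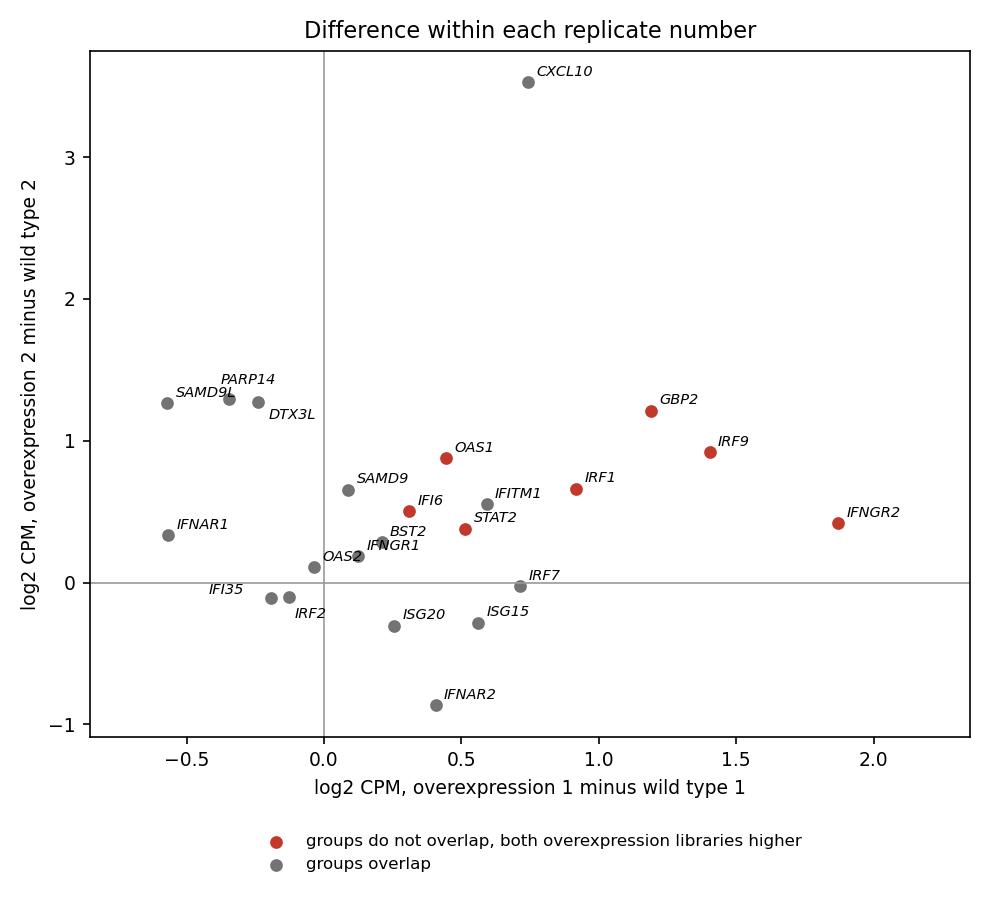
Difference in log2 CPM between RFWD2 overexpression and wild type within replicate number 1 (x axis) and within number 2 (y axis) for the 23 expressed members, 1 point each. The 7 members without overlap in FPKM (red) are positive on both axes, as that choice all but fixes. They run from IFI6 at 0.31 and 0.50 to IFNGR2 at 1.87 and 0.42, and CXCL10 stands alone at 3.53 on the y axis.

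Differences between the replicate numbers were about as frequent in the members as in all genes. Library 2 was above library 1 in both genotypes in 10 of the 23 expressed members, against 39.1% of genes of that level, and below it in both in 11, against 42.5%. In an edgeR fit of number 2 against number 1 with genotype as a second term, chosen after seeing the data, SAMD9 (1.81, adjusted p = 0.0478) was higher in number 2. IFITM1 (-1.36, adjusted p = 0.0478) and BST2 (-0.71, adjusted p = 0.0490) were lower in number 2 in that edgeR fit. These 3 of 38 members are a share near that of all genes tested, 7.20%.

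The rest of the pathway was counted from a list of 102 further genes, of which 101 were found and 1 is not analysed here. Of these, 55 averaged at least 1 FPKM, 72 could be tested, and 0 were called by edgeR, where 0% of all genes were. At an unadjusted p under 0.05 with edgeR, SOCS3, GBP4 and LAMP3 were higher, against 1.25% of all genes tested, and 0 were lower, against 0.583%. GBP4 was silent by the measure used here, at no more than 0.0493 FPKM, with a count of 0 in both wild type libraries. DESeq2 called 0, where 0.263% of all genes with an adjusted p were called. The log2 fold change was positive in 50 of the 72, with a median of 0.23, against 51.6% and 0.01 for all genes tested. Both overexpression libraries lay above both wild type libraries in 6 of the 55 expressed genes, near the share of all genes of that level, 9.55%. They lay below in 1, against 6.44% of those genes.

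SOCS3, a feedback inhibitor of cytokine receptors, was at 3.56 and 3.35 FPKM in overexpressing cells against 1.44 and 0.876 FPKM in wild type (1.51 ± 0.52, SE, edgeR adjusted p = 1.0). It had no overlap between genotypes in FPKM, and neither had STAT3, NLRC5, C19orf66 and ZNFX1. ZNFX1, an RNA helicase-like sensor, was at 4.87 and 7.04 FPKM in overexpressing cells against 4.05 and 3.21 FPKM in wild type, and TDRD7, a Tudor protein, at 1.10 and 2.44 FPKM in overexpressing cells against 0.796 and 1.13 FPKM in wild type.

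AIM2, a sensor of cytosolic DNA, shared the pattern of CXCL10, at 1.27 and 7.95 FPKM in overexpressing cells against 1.24 and 1.75 FPKM in wild type, high in overexpression library 2 alone. The chemokine CCL5 was high in wild type library 2, at 30.1 and 25.9 FPKM in overexpressing cells against 34.0 and 109 FPKM in wild type, and was the 1 gene below in both overexpression libraries. IL10RB, the shared chain of the lambda receptor, lies between IFNAR2 and IFNAR1 and was low in overexpression library 1, at 1.44 and 4.24 FPKM in overexpressing cells against 4.14 and 5.21 FPKM in wild type. Its model also overlaps AP000295 on the same strand, and their sum was 6.31 and 6.78 FPKM in overexpressing cells against 7.43 and 6.45 FPKM in wild type, where that library was no longer set apart. MYD88, an adaptor of Toll-like receptors, was high in wild type library 1, at 3.28 and 3.01 FPKM in overexpressing cells against 7.75 and 2.41 FPKM in wild type. RNF114, a ubiquitin ligase, was low in overexpression library 1 too, at 7.39 and 16.8 FPKM in overexpressing cells against 15.0 and 15.1 FPKM in wild type.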

How the data were processed

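Poly(A)-selected RNA was sequenced as paired ends, per the labels' protocols. The deposited table holds estimated counts and FPKM for 4 libraries, per the file headers. Tools listed in the submitters' processing notes, without roles, are Bowtie 0.12.2, StringTie 1.3.0 and HISAT2 2.0. The only build there is mm8, of mouse, although the table holds human gene identifiers. Counting rule and strand use were not given in the sources used here. Deposited counts were whole numbers but treated as estimated counts, because 35.4% to 36.0% of low values were multiples of 4. The deposited FPKM placeholder 0.0001 was set to 0.

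Groups and replicate numbers came from genotype and title. Genes were tested two-sided with the quasi-likelihood F test of edgeR 4.0.16 under R 4.3.3 (TMM factors, filterByExpr) over 18873 genes with Benjamini-Hochberg adjustment and a threshold of 0.05. An exact permutation test of 2 against 2 cannot go below p = 0.333 and was not used. DESeq2 1.42.0 and limma 3.58.1 on log2(FPKM + 1) were alternatives, with other normalizations, filters and pseudocounts, counts divided by 4, a replicate block and each library left out. Log2 CPM used a prior count of 2. Shared 50-base runs were counted in GENCODE 29 transcripts, and sums over overlapping models were added after seeing the data. Every expressed member, and up to 4 pathway genes each way by unadjusted p with a mean of at least 1 FPKM, are named with values in each library; genes named beyond that were chosen after their values were seen. The fits were tested on simulated data. The members and lists were chosen with earlier results of these data known. Values of 1 further pathway gene are not reported here.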

Additional observations from a re-analysis of the deposited data

How the results depend on the processing

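No member and no other pathway gene was called by edgeR with RLE factors, without the filter, with counts divided by 4 or with a replicate block (0 in each), by DESeq2 or by limma on log2(FPKM + 1) or log2(FPKM + 0.1). Leaving out 1 library gave 0 to 2 called members, PARP9 and CXCL10 without overexpression library 1 and IFITM2 without overexpression library 2, and 0 other pathway genes. A library stood apart in 2 members, but in 4 with a smaller gap, 5 on log2 CPM and 4 with a pseudocount of 0.1. Groups did not overlap in 7 expressed members and in 11 of the 35 with a mean of at least 0.1 FPKM, 10 above and 1 below, against 12.2% and 7.69% of genes. The count of expressed members, 23, was 26 at 0.5 FPKM, 17 at 2 FPKM and 21 to 24 without 1 library. The ISRE core, in 26 members, was in 21 with a C required after it and in 31 with 1 mismatch.

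The numbers share only a label, not a stated pairing, and deviations of same-numbered libraries correlated at 0.557, a value that 2 pairs fix alike. Under the replicate block the log2 fold change of ISG20 was -0.027. The other 247 values of named genes under settings with all 4 libraries kept their direction and side of the threshold.

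Leaving out 1 library turned the sign in 17 of the genes chosen by the rule for named genes. Their log2 fold changes ran from -0.57 to 0.34 for IFNAR1, -0.59 to 0.12 for IFNAR2, -0.041 to 0.33 for IFNGR1, -0.30 to 0.057 for IRF2, -0.44 to 1.04 for IRF7, -0.42 to 0.44 for OAS2, -0.28 to 1.40 for IFITM1, -0.50 to 0.21 for IFI35, -0.51 to 0.43 for ISG20, -0.87 to 1.48 for SAMD9, -0.93 to 1.54 for SAMD9L, -0.15 to 0.65 for BST2, -0.66 to 0.86 for ISG15, -0.58 to 1.54 for DTX3L, -0.79 to 1.63 for PARP14, -1.45 to 0.47 for MYD88 and -0.10 to 2.20 for AIM2. Beyond that rule it also turned in PARP9 (-0.13 to 2.57), UBE2L6 (-0.16 to 0.78) and JAK2 (-1.07 to 0.63). Among other low members it turned without overexpression library 2 in DDX58 (-0.17), IFIT2 (-6.97), IFIT3 (-0.97) and PARP12 (-0.58). Without overexpression library 1 it turned in IFITM3 (-0.32) and IFI27 (-0.28). Further genes of the pathway list turned as well and are not listed. The cause was not tested. The 7 members without overlap in FPKM stayed positive, with IRF9 from 0.58 to 1.68, IRF1 from 0.30 to 1.20 and STAT2 from 0.05 to 0.78. They were picked for having both overexpression libraries above both wild type libraries, so their sign could hardly turn and adds no separate support. IRF9 is given here without its overlapping model AL136295. The difference between numbers counts as spread in the test without a block, so 0 calls do not show that values did not differ.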
